A study of Arabidopsis thaliana with 18 samples.

Results

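Imbibed Arabidopsis thaliana seeds that carried the ΔDS copy of a complementing gene were compared with imbibed seeds that carried its intact copy (+WT), gene by gene. The comparison holds all genes whose mean over the 6 imbibed libraries was at least 10 normalised counts, which gave 17274 of the 33602 genes listed. The complementing gene is FLOE1 (AT4G28300), known from the study and not named in the labels. Its protein forms condensates in embryo cells during water uptake, and DS names a segment of that protein. The groups used here were imbibed ΔDS seeds and imbibed +WT seeds, with 3 libraries each, both kept for 5 days at 4 °C in darkness on medium without salt and then for 4 hours in light at 22 °C. Seeds of both genotypes are complemented plants, so +WT is itself transgenic. Dry seeds and seeds imbibed with 220 mM NaCl, again with 3 libraries per genotype, served for side-by-side values. The series has 18 samples in 6 groups.

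Values come from the authors' deposited table for imbibed seeds, which gives 1 mean, 1 log2 fold change and 1 adjusted p per gene and no value per library. A gene was called where the adjusted p of that table was at most 0.05. The headers do not state the direction of the fold change. From the order of the genotype names, positive values were taken to mean a higher level in ΔDS, and the reverse order would turn all signs. Levels given for a group are implied means in normalised counts per library, worked out from each gene's deposited mean and fold change, and they are approximate. Whether replicates stem from separate mother plants, and whether a genotype is 1 line or several, is not in the labels, so the p-values cover only the spread between these libraries, which may be technical. Effects of the deletion, of a line or insertion, and of the amount of FLOE1 transcript cannot be told apart.

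A dry seed holds messenger RNA left from maturation, above all for storage proteins, oil body proteins and the late embryogenesis abundant (LEA) proteins that protect cells from drying. As the seed takes up water, that RNA is degraded. Genes for ribosomes, cell wall loosening and, later, DNA replication are transcribed in its place. Abscisic acid (ABA) holds this programme back, and gibberellin and light promote it. In bulk seed RNA, fewer cells of a type and less RNA per cell cannot be told apart.

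The 6 promoters below are shown first, because each stands in front of a gene of a list that moved and carries a short motif known from that kind of gene. Each is the 250 bases before the annotated gene start in RefSeq TAIR10.1, read 5′ to 3′ on the gene's strand, with the motif in capitals on whichever strand it was found. AT4G36600, a LEA gene, was lower in ΔDS and has 2 copies of the ABRE (ACGTGTC, the ABA-responsive element) at chr4:17263314-17263563 on the plus strand. SESA3 (AT4G27160), a seed storage albumin, was lower and has 7 positions of the RY motif (CATGCA, a seed-specific element), partly overlapping, at chr4:13611546-13611795 on the plus strand. HSP17.4 (AT3G46230), a small heat shock protein, was lower and has 2 copies of a heat shock element at chr3:16984868-16985117 on the minus strand. AT2G40360, from the ribosome biogenesis list, was higher and has a telo-box (AAACCCTA) and a site II motif (TGGGCC, here in reverse) at chr2:16856772-16857021 on the minus strand. MCM5 (AT2G07690), a subunit of the replicative helicase, was higher and has an E2F site (TTTCCCGC) at chr2:3527501-3527750 on the minus strand. PARP2 (AT4G02390), a poly(ADP-ribose) polymerase of the DNA damage response, was higher and has a match to the spaced palindrome that the factor SOG1 is known to bind (the SOG1 motif) at chr4:1049516-1049765 on the plus strand.
AT4G36600: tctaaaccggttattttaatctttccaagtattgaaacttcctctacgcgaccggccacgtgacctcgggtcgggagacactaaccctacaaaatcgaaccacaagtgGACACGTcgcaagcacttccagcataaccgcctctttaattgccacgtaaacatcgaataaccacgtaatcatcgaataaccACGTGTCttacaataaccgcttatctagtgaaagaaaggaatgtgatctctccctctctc
SESA3: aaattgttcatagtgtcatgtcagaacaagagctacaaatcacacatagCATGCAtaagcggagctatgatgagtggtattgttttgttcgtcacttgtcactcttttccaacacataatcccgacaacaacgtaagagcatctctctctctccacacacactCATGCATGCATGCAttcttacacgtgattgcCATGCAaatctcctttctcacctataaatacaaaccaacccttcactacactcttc
HSP17.4: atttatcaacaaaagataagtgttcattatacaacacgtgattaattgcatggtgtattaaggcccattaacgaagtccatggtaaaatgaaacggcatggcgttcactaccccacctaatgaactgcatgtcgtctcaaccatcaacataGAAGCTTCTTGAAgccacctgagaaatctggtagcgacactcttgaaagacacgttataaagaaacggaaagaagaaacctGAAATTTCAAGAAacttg
AT2G40360: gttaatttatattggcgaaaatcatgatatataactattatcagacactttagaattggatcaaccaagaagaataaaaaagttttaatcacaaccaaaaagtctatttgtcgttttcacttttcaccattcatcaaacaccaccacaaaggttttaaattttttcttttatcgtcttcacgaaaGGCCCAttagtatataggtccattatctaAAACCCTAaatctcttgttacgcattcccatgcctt
MCM5: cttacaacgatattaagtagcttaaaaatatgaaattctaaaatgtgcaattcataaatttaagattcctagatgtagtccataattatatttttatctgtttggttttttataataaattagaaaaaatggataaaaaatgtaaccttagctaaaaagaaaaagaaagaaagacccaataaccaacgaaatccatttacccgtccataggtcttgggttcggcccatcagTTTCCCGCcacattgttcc
PARP2: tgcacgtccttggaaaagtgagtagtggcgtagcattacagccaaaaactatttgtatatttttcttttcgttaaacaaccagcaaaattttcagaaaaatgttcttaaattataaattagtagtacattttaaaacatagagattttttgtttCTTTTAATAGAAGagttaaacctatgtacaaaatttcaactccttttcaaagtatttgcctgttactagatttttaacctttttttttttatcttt

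Imbibed ΔDS and +WT seeds differed over a large part of the transcriptome, mostly by small amounts. In the authors' deposited table, 7735 of 17273 genes with an adjusted p were called, which is 44.8%. Of these 3978 (23.0% of genes tested) were higher and 3757 (21.8%) lower in ΔDS, so that 51.4% of calls were higher. Scaling by library totals instead adds 0.19 to every log2 value. No totals per library were given, so 0.19 comes from the ratio between the groups of their implied means summed over genes. This scaling put 76.9% of calls on the higher side, with 35.7% of genes tested higher and 10.7% lower. The median called gene differed 1.57-fold. A change of at least 2-fold was called for 1970 genes (11.4%), with 1319 (7.64%) higher and 651 (3.77%) lower. Beyond 4-fold, 322 genes were higher and 50 lower, and beyond 8-fold, 62 and 5.

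The balance between higher and lower calls changed with abundance. Among 3465 genes tested of 10 to 100 mean normalised counts 807 were called higher and 287 lower in the authors' deposited table. Between 100 and 1000 counts 1858 of 8889 were higher and 1856 lower. Between 1000 and 10000 counts 1198 of 4660 were higher and 1517 lower. Above 10000 counts 115 of 259 were higher and 97 lower, but of the 10 most abundant genes 9 were called lower, ICL and MLS by small amounts. The share called either way rose with abundance, at 31.6%, 41.8%, 58.3% and 81.9% in these classes. Among all genes tested 23.0% were called higher and 21.8% lower. CRA1 (AT5G44120), a cruciferin storage protein, had an implied mean of 527381 normalised counts in ΔDS and 1273520 in +WT seeds. Exon length had little relation to the fold change across genes (Spearman's rho -0.02 over 17254 genes, as a description). At the threshold on the mean, 106 genes between 10 and 11 counts had a median log2 fold change of 0.53 and 136 genes between 9 and 10 counts one of 0.37.

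**Figure D1:**
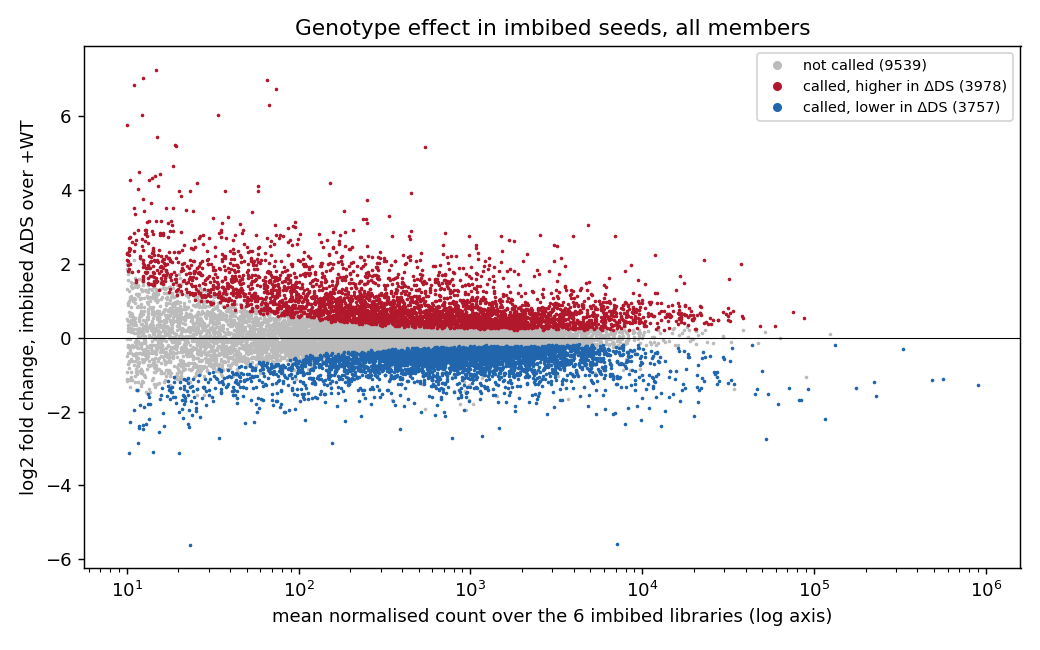
Log2 fold change of imbibed ΔDS over +WT seeds (vertical axis) against the mean normalised count over the 6 imbibed libraries (log axis), 1 point per gene. Of the 17274 genes, 3978 called higher are red, 3757 called lower are blue and 9539 others are grey, and the largest increases are at low counts while 9 of the 10 most abundant genes lie below 0.

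FLOE1 (chromosome 4, 14014646 to 14017097, plus strand, TAIR10.1) had an implied mean of 292.6 normalised counts in ΔDS and 13978 in +WT seeds. The authors' deposited table gave a log2 fold change of -5.58 ± 0.16 (SE). The counting of reads from the shortened copy is not described in the labels, so a lower transcript level and fewer countable reads cannot be told apart. The related gene AT3G01560 fell by 0.58 on the log2 scale in the authors' deposited table (SE 0.15, adjusted p = 0.00073), and AT5G14540 was at 0.25 without passing (adjusted p = 0.0581). The largest increases had nearly no counts in +WT. AGL62 (AT5G60440), a MADS-box gene of the young endosperm, had an implied mean of 24.3 normalised counts in ΔDS and 0.373 in +WT seeds, and NHL22 (AT4G09590) 29.3 in ΔDS and 0.194 in +WT seeds. AT1G24792, AT1G24879 and AT1G25209 were likewise near 1 in +WT and at 146.5, 130.3 and 67.1 in ΔDS. They share 94.7% to 100% of their 31-base words with other genes and NHL22 82.3%, so reads may not be assigned to them with certainty. CHIL (AT5G05270), a chalcone isomerase-like protein of flavonoid synthesis, was at 0.950 in ΔDS and 45.9 in +WT seeds. Several of these differences were also large in the other states. In the authors' deposited tables NHL22 was at 7.24 in imbibed, 6.45 in dry and 6.68 in salt-imbibed seeds on the log2 scale. AT1G24792 was at 6.73, 5.92 and 5.71 in the same order, and AGL62 at 6.02, 1.81 and 6.70. CHIL was at -5.60 in imbibed and -5.55 in salt-imbibed seeds and had no dry value.

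Transcripts of the maturing seed were lower in ΔDS. All 13 storage protein genes fell in the authors' deposited table, with a median log2 fold change of -1.27, against 21.8% of all genes tested called lower and a median of 0.00. CRU2 (chromosome 1, 985751 to 988146), another cruciferin, had 7474 normalised counts in ΔDS and 32513 in +WT seeds as implied means (-2.12 ± 0.26, adjusted p = 3.6e-14 in the authors' deposited table). SESA5 (AT5G54740), a storage albumin, had 13781 in ΔDS and 91435 in +WT seeds, while dry +WT seeds were at 398177 in their own table. The dry, imbibed and salt tables were normalised separately. Not all storage RNA declined in +WT, since CRA1 was at 301842 implied counts in dry +WT seeds and at 1273520 in imbibed ones.

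Oil body genes followed, and 8 of 10 fell and 1 rose in the authors' deposited table (median -1.30). OLEO1 (AT4G25140), the main oleosin, had 50846 implied counts in ΔDS and 133901 in +WT seeds. The single one that rose, AT3G05500, annotated as a rubber elongation factor protein, did so by 0.27 (adjusted p = 0.0471). Before imbibition, in dry seeds, 6 of the 10 oil body genes were called lower in ΔDS and none higher (median -0.16). Of 20 genes for enzymes that break the oil down 4 were higher and 4 lower in the authors' deposited table, with a median of 0.13. Both shares were close to those of all genes tested, 23.0% higher and 21.8% lower. Scaling by library totals made the oil breakdown counts 11 higher and 1 lower. ICL (AT3G21720), the isocitrate lyase of the glyoxylate cycle, was at 297327 implied counts in ΔDS and 366403 in +WT seeds, a 1.23-fold lower level.

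Of 22 LEA genes 18 fell and none rose in the authors' deposited table, with a median of -1.08. AT4G36600, whose promoter is shown above, had 1619 implied counts in ΔDS and 5229 in +WT seeds (-1.69 ± 0.27, adjusted p = 3.83e-08). AT3G22490, a seed maturation protein, had 180.7 in ΔDS and 646.4 in +WT seeds, and 37432 in dry +WT seeds. Heat shock genes had the lowest median of the lists, -1.73, and the widest errors, with a median SE of 0.56. Of 16 genes 11 fell and none rose in the authors' deposited table. HSFA9 (AT5G54070), the heat shock factor of maturing seeds, had 33.2 implied counts in ΔDS and 122.7 in +WT seeds, and HSP17.4 2062 in ΔDS and 8686 in +WT seeds. In dry seeds the direction differed, with 8 of these genes higher in ΔDS and none lower in the authors' deposited table for that state. LEA genes had the same direction in dry seeds, with 17 of 22 called lower in ΔDS and none higher (median -0.22).

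Regulators of maturation and dormancy moved less. In the authors' deposited table, 5 of 11 maturation regulators fell, and ABI4 rose (0.59 ± 0.20). Of all genes tested 23.0% were called higher and 21.8% lower. ABI3 (AT3G24650), the B3 factor that keeps seed genes on, had 10389 implied counts in ΔDS and 15048 in +WT seeds (-0.53 ± 0.12). ABI5 (AT2G36270), the bZIP factor of ABA responses, fell by 0.74. DOG1 (AT5G45830), the main dormancy gene, had 379.8 implied counts in ΔDS and 999.6 in +WT seeds (-1.40 ± 0.26, adjusted p = 1.49e-06 in the authors' deposited table). Of 18 dormancy and ABA signalling genes 11 fell and 2 rose, the 2 being the ABA receptors PYR1 and PYL1. The phosphatase genes AHG1 and HAI2, which restrain ABA signalling, fell by 1.33 and 0.95 on the log2 scale. Scaling by library totals left 6 of the 11 lower.

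Hormone enzymes and light signalling were mixed. Of 11 genes of ABA synthesis and breakdown 3 fell and none rose in the authors' deposited table. Scaling by library totals made this 1 lower and 1 higher. ABA1 (AT5G67030), a zeaxanthin epoxidase on the route to ABA, was at -1.20 ± 0.25. CYP707A1 (AT4G19230), a cytochrome P450, was at -0.88 ± 0.32 and ABA3 (AT1G16540) at -0.31 ± 0.12, and both lost their call under that scaling. Of 20 gibberellin genes 3 rose and 6 fell, against 23.0% and 21.8% of all genes tested. Under scaling by library totals 6 rose and 3 fell, and the median turned from -0.10 to 0.09. Before that scaling the 3 that rose were GA2OX8, RGL1 and GA3OX2. GA2OX8 (AT4G21200), annotated as a gibberellin 2-oxidase, had the smallest adjusted p of the list. It rose by 2.76 ± 0.54 on the log2 scale (adjusted p = 7.04e-06 in the authors' deposited table). RGL1 (AT1G66350), annotated as RGA-like 1, rose by 0.85 ± 0.31 (adjusted p = 0.0181 in the same table). GA3OX2 (AT1G80340), which makes bioactive gibberellin, had 2712 implied counts in ΔDS and 1466 in +WT seeds, and 0.362 in dry +WT seeds. The receptor gene GID1A (AT3G05120) had 1192 in ΔDS and 2265 in +WT seeds. Among 16 light and phytochrome genes 3 rose and 6 fell in the authors' deposited table, and 4 rose and 4 fell under scaling by library totals. PIL5 (AT2G20180, also PIF1), a repressor of germination in the dark, fell by 0.87 ± 0.15 (SE), and SPT (AT4G36930), a related factor, rose by 1.18 ± 0.22.

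Cell wall loosening genes rose together. In the authors' deposited table, 18 of 20 were higher and none lower, with a median of 1.45, against 23.0% of all genes tested called higher. XTH31 (chromosome 3, 16446935 to 16448844), a xyloglucan endotransglucosylase, had 5242 implied counts in ΔDS and 922.0 in +WT seeds (2.51 ± 0.30, adjusted p = 1.61e-14 in the authors' deposited table). EXPA15 (AT2G03090), an expansin, had 3544 in ΔDS and 745.5 in +WT seeds, and 10.4 in dry +WT seeds. XTH16 (AT3G23730), of the same family as XTH31, had 374.9 in ΔDS and 83.4 in +WT seeds. Of 12 cellulose synthesis genes 1 rose and 2 fell in the authors' deposited table, with a median of -0.01. Under scaling by library totals 5 rose and 2 fell, with a median of 0.18. Of 20 tubulin and actin genes 14 rose and ACT8 alone fell, and under scaling by library totals 16 rose and none fell. TUB5 (AT1G20010), a beta tubulin, had 1620 implied counts in ΔDS and 540.5 in +WT seeds.

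Ribosome genes rose by smaller and more even amounts. In the authors' deposited table, 22 of 23 cytosolic ribosomal protein genes were higher (median 0.65, highest value 1.08), and the other one, PGY2, was at 0.19 (adjusted p = 0.0508). RPL23AA (AT2G39460) had 14503 implied counts in ΔDS and 7520 in +WT seeds. Of 26 ribosome biogenesis genes 22 rose and none fell (median 0.59), against 23.0% of all genes tested called higher. FIB2 (AT4G25630), a fibrillarin of the nucleolus, had 12350 implied counts in ΔDS and 5398 in +WT seeds.

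DNA replication genes rose in 16 of 18 cases in the authors' deposited table (median 1.13), against 23.0% of all genes tested called higher. TSO2 (chromosome 3, 9979841 to 9981620), a small subunit of ribonucleotide reductase, had 8581 implied counts in ΔDS and 1037 in +WT seeds (3.05 ± 0.16, adjusted p = 3.19e-81 in the authors' deposited table). MCM5, whose promoter is shown above, had 536.3 in ΔDS and 274.1 in +WT seeds. Mitotic genes were mostly near the floor: of 20 listed, 10 were under 10 mean counts, 2 of them at 0. Of the 10 measured 4 rose in the authors' deposited table, and CYCB1;1 (AT4G37490), a mitotic cyclin also induced by DNA damage, had 344.4 implied counts in ΔDS and 63.2 in +WT seeds. CDKB2;1, which marks cells about to divide, was at -0.54 without passing (adjusted p = 0.386).

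The DNA damage response had the highest median of the lists with at least 10 genes measured, at 1.61. In the authors' deposited table, 8 of 11 genes rose and 1 fell, against 23.0% and 21.8% of all genes tested. PARP2 had 1185 implied counts in ΔDS and 208.1 in +WT seeds (2.51 ± 0.12, adjusted p = 5.23e-89). SMR7 (AT3G27630), a cyclin-dependent kinase inhibitor, had 289.6 in ΔDS and 16.0 in +WT seeds. BRCA1 (AT4G21070), which acts in repair of broken DNA, had 248.6 in ΔDS and 52.2 in +WT seeds. SOG1, the transcription factor that drives this response, was at 0.24 without passing (adjusted p = 0.123). The gene that fell was AT5G22470, a poly(ADP-ribose) polymerase abundant in dry seeds, with 7159 implied counts in ΔDS, 16543 in +WT and 138437 in dry +WT seeds. The authors' deposited table for dry seeds called none of these 11 genes, and the one for salt called 10 higher and 1 lower.

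**Figure D2:**
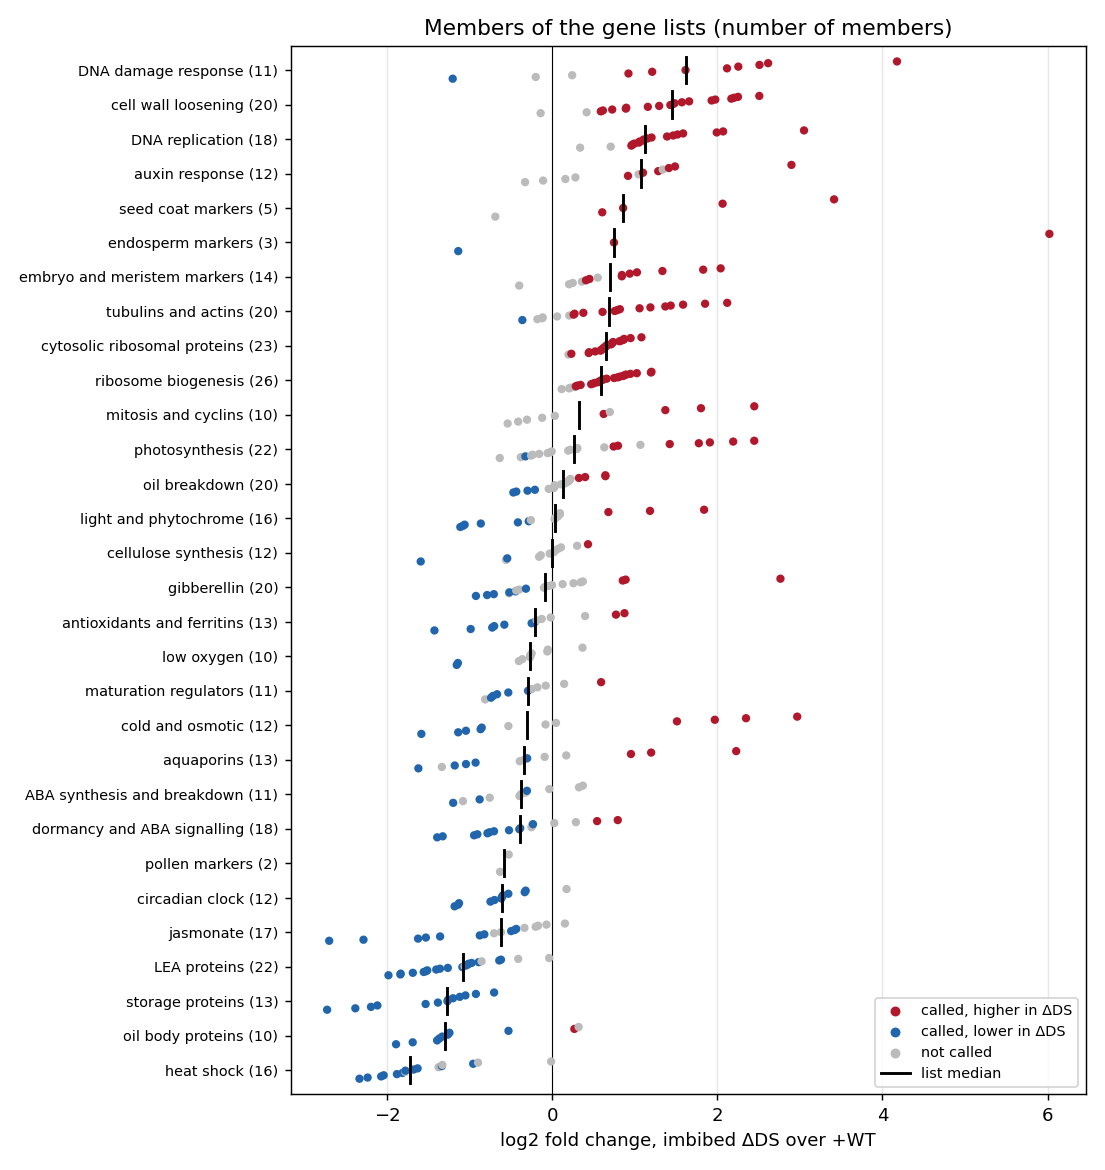
Log2 fold change of imbibed ΔDS over +WT seeds for each measured gene of the 30 lists, ordered by the list median (black bar). Red points were called higher, blue lower and grey not called, and the list medians run from 1.61 for the DNA damage response to -1.73 for heat shock.

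Markers of tissues gave the following, beside the storage and oil body genes of the seed itself, all of which were measured. Among markers of embryo and meristem 9 of 14 rose in the authors' deposited table, none fell, and the median was 0.70. The shares of all genes tested were 23.0% called higher and 21.8% lower. PDF1 (AT2G42840), a gene of the epidermal cell layer, had 2440 implied counts in ΔDS and 593.7 in +WT seeds, and SHR (AT4G37650), a regulator of root radial pattern, 238.3 in ΔDS and 67.2 in +WT seeds. Of 12 auxin genes 6 rose, among them the efflux carrier genes PIN3 and PIN7. Of 9 endosperm markers 3 were measured, 2 higher and 1 lower, and FIS2 and AT3G12910 were at 0. EPR1 (AT2G27380), an extensin-like gene of the endosperm, had 301897 implied counts in ΔDS and 665810 in +WT seeds. Of 10 seed coat markers 5 were measured and 4 rose, with a summed level of 733.6 in ΔDS and 461.9 in +WT seeds, and TT10, BAN and TT12 were at 0. Of 11 pollen markers 2 were measured and none was called. The part of tissue make-up in the gene group results was not tested.

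Clock and jasmonate genes were lower. Of 12 circadian clock genes 11 fell and none rose in the authors' deposited table (median -0.62), and 7 fell and 1 rose under scaling by library totals. CCA1 (AT2G46830), a morning factor of the clock, had 88.9 implied counts in ΔDS and 196.3 in +WT seeds, and RVE8 (AT3G09600), a related activator, 252.1 in ΔDS and 552.4 in +WT seeds. Of 17 jasmonate genes 10 fell and none rose (median -0.62), and 7 fell under scaling by library totals. Among all genes tested 21.8% were called lower in the authors' deposited table. AOS (chromosome 5, 17097564 to 17099595), the allene oxide synthase of jasmonate synthesis, had 207.1 implied counts in ΔDS and 1350 in +WT seeds (-2.70 ± 0.31, adjusted p = 1.45e-15 in the authors' deposited table). MYC2 (AT1G32640), the transcription factor of the jasmonate response, had 156.7 in ΔDS and 453.7 in +WT seeds, but 98.5% of its 31-base words also lie in another gene, AT1G32630, which overlaps it.

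Other lists held genes called in both directions or few calls, to be read against the 23.0% of all genes tested that were higher and the 21.8% that were lower. Of 12 cold and osmotic genes 4 rose and 5 fell in the authors' deposited table. COR47 (AT1G20440), a dehydrin induced by cold, had 2540 implied counts in ΔDS and 499.5 in +WT seeds, while GolS1 (AT2G47180), a galactinol synthase also active in maturing seeds, had 2165 in ΔDS and 6507 in +WT seeds. Of 13 aquaporin genes 3 rose and 5 fell, shares near or above those of all genes. PIP2;8 (AT2G16850) had 143.4 in ΔDS and 30.6 in +WT seeds, and PIP2A (AT3G53420) 145.8 in ΔDS and 277.9 in +WT seeds, both being water channels of the plasma membrane. Photosynthesis genes rose in 7 of 22 cases and fell in 1, LHCA4, whose call was lost under scaling by library totals. PORB (AT4G27440), a protochlorophyllide oxidoreductase, had 777.3 in ΔDS and 207.0 in +WT seeds. Of 13 antioxidant and ferritin genes 2 rose and 7 fell, or 3 and 4 under scaling by library totals. CAT3 (AT1G20620), a catalase, had 11665 in ΔDS and 31418 in +WT seeds. Of 10 low oxygen genes ADH1 and PDC2, both of fermentation, fell by 1.15 and 1.16 on the log2 scale and none rose, so that the share called lower was near that of all genes. By annotated product, among the 66 families with at least 20 genes tested, GDSL lipases were higher in 21 of 31 cases and RING/U-box proteins lower in 69 of 174 in the authors' deposited table.

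**Figure D3:**
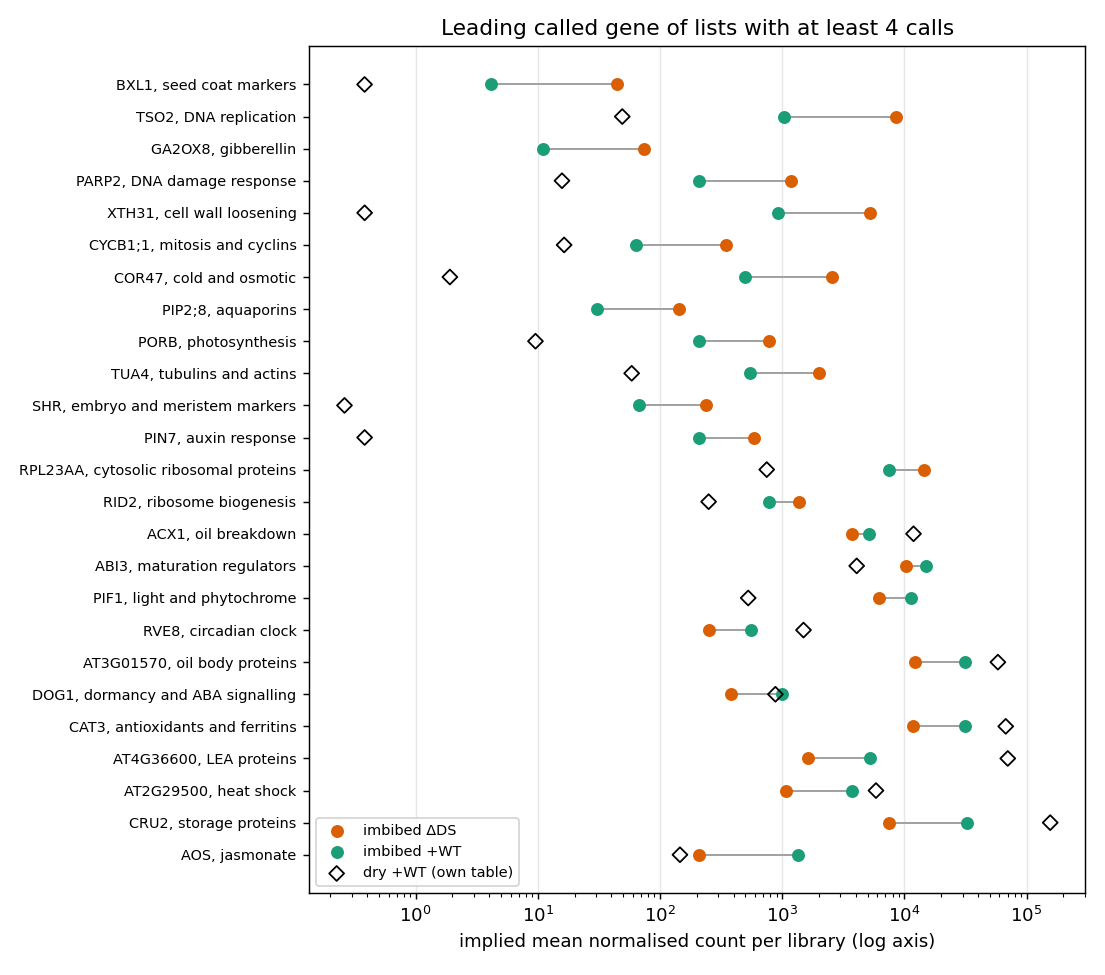
Implied mean normalised counts per library (log axis) of the called gene with the smallest adjusted p in each of the 25 lists with at least 4 called genes, in imbibed ΔDS (orange) and imbibed +WT seeds (green), with dry +WT seeds (open diamond) from their own table, normalised separately. A gene at 0 in dry seeds has no diamond; XTH31 is at 5242 in ΔDS and 922.0 in +WT, and CRU2 at 7474 in ΔDS and 32513 in +WT.

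To see how far the genotype effect ran along germination, each gene was placed on an axis that shares no library with the imbibed comparison: the log2 ratio of the implied level in +WT seeds imbibed with salt over that in dry +WT seeds, with 1 added to each. The axis covers cold, light, water uptake and salt together, and its tables were normalised separately. Median genotype effects rose along it. For genes at least 8-fold lower in salt-imbibed than in dry +WT seeds, the median log2 fold change of imbibed ΔDS over +WT was -0.36. It was -0.20 for genes down by less than 2-fold, 0.14 for genes up 2-fold to 4-fold and 0.54 for genes up at least 8-fold. In that last class 53.6% of genes were called higher and 8.45% lower in the authors' deposited table, against 13.6% and 28.2% in the lowest class. An axis from ΔDS seeds gave -0.69 and 0.65 at its ends.

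**Figure D4:**
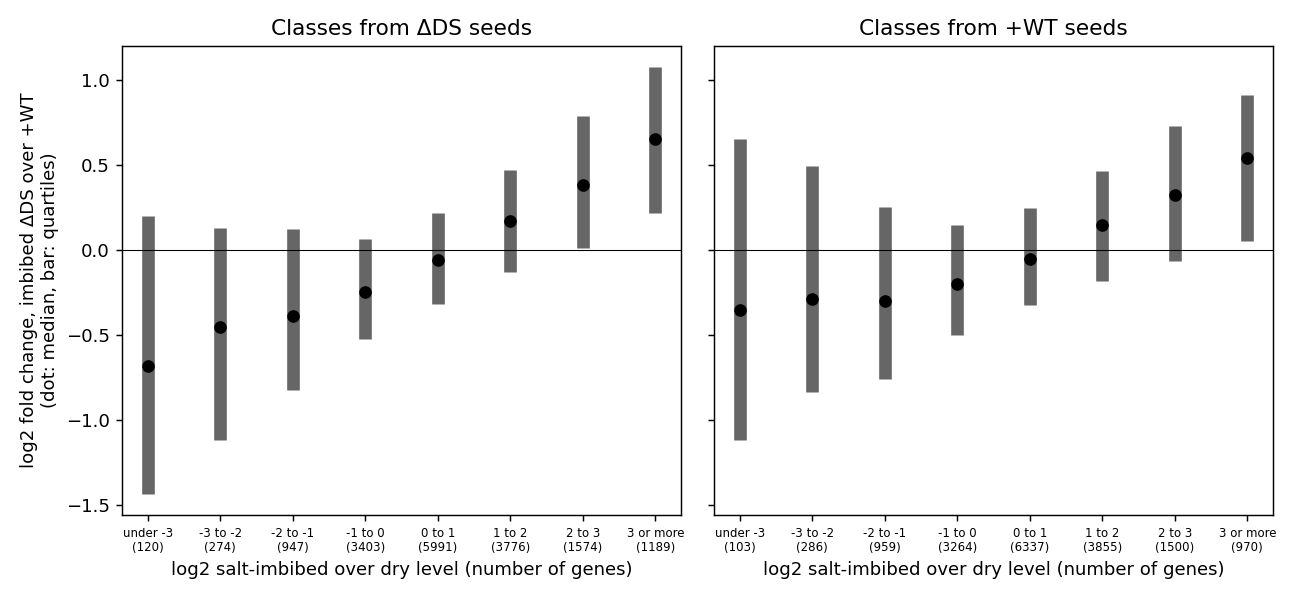
Median (dot) and quartiles (bar) of the log2 fold change of imbibed ΔDS over +WT seeds, for genes grouped by the log2 ratio of salt-imbibed over dry level, taken from ΔDS seeds (left) and from +WT seeds (right), with the number of genes in each class. The medians go from -0.69 to 0.65 on the left and from -0.36 to 0.54 on the right, and the quartiles of most classes span 0.

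Among called genes that changed at least 2-fold along the +WT axis, 2805 of 3751 (74.8%) had the sign of that change. Read in the reverse direction, with the axis then taken from the other genotype, the share would be 18.6%. Of the 3074 going up 2337 (76.0%) were higher and 737 lower in ΔDS. Of the 677 going down 468 (69.1%) were lower and 209 higher. The 74.8% thus rests mainly on genes going up, and the share due to these unequal numbers alone was not worked out. Across all 17274 genes the relation was loose, with Pearson's r of 0.23 and Spearman's rho of 0.31 as a description. Genes are not independent, and the points share the normalisation of each table. The class of at least 8-fold down held 103 genes.

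The lists differed in how they lay along this axis. Among all 17274 genes 36.6% were at least 2-fold up along it and 7.80% down. Of 23 ribosomal protein genes 22 were at least 2-fold up along it and 22 were called higher in ΔDS. Of 22 LEA genes 14 were at least 2-fold down along it, and of 16 heat shock genes 12 were. Storage protein genes did not share this pattern, with 4 of 13 up and 4 down, and the 4 on each side were called lower in ΔDS. Oil body genes were 1 of 10 up and 3 down. Dormancy genes lay close to those shares, with 7 of 18 up and 1 down, and 5 of the 7 were called lower in ΔDS. DOG1 was at 880.3 implied counts in dry and 3699 in salt-imbibed +WT seeds. Of 12 clock genes 7 were at least 2-fold up along it and none down, and all 7 were called lower in ΔDS. Of 17 jasmonate genes 7 were up, 5 of them called lower, and 5 were down, 3 of them called lower. AOS was among those up, at 145.7 in dry and 791.1 in salt-imbibed +WT seeds. Besides AOS, the largest decreases among genes at least 4-fold up along the axis were those of CHIL, ERF1 and CIPK16, and the largest increases among genes at least 4-fold down were those of AGL62, RTFL5, AT2G34080 and TOE3. AT2G34080, a cysteine proteinase, had 445.4 implied counts in ΔDS and 52.3 in +WT seeds, but shares 43.0% of its 31-base words with other genes.

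The imbibed effect was then set beside those of the other states, whose libraries are separate. Of 484 imbibed-comparison genes called lower in dry ΔDS seeds in the authors' deposited table for that state, 313 were also lower after imbibition. That is 64.7% of the 484, against 21.8% of all genes tested called lower in imbibed seeds. The 313 genes made up 8.33% of the imbibed lower calls. Of 469 called higher in dry seeds 114 (24.3%) were also higher after imbibition, near the 23.0% of all genes tested called higher, and 155 were lower. Of 1286 genes called lower in salt 1093 (85.0%) were lower in imbibed seeds, against the same 21.8%. Of 1254 called higher in salt 927 (73.9%) were higher in imbibed seeds, against 23.0%. The shared genes made up 29.1% of the imbibed lower and 23.3% of the imbibed higher calls. A z test between states on the deposited log2 fold changes, with Benjamini-Hochberg adjustment, put the imbibed effect above the dry one for 1363 of 16969 genes (8.03%) and below it for 2630 (15.5%). Against salt it was above for 633 of 17212 genes (3.68%) and below for 1123 (6.52%). With 8 degrees of freedom in a t reference, 77 genes differed from dry and 0 from salt. The log2 fold change of TSO2 was -0.32 in dry, 3.05 in imbibed and 4.50 in salt-imbibed seeds in the authors' deposited tables.

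The motifs marked in the promoters above were then counted in the 250 bases upstream of every gene, on both strands. The ABRE was found before 11.2% of genes called at least 2-fold lower, 4.40% of those called at least 2-fold higher and 4.63% of all genes measured (3.13% of all annotated genes). Over all called genes, whatever their fold, it was before 7.20% of the lower and 3.75% of the higher. The RY motif was before 15.5% of the genes at least 2-fold lower, 9.86% of those at least 2-fold higher and 7.21% of all genes measured (8.84% of annotated genes). Over all called genes these shares were 8.32% of the lower and 7.44% of the higher. The G-box (CACGTG), which is contained in an ABRE that follows a C, was before 16.3%, 7.13% and 7.84% in the same order (5.39% of annotated genes), and over all calls before 11.2% of the lower and 6.89% of the higher. The heat shock element was before 1.69% of the genes at least 2-fold lower, 0.303% of those at least 2-fold higher and 0.458% of all genes measured (0.385% of annotated genes). Over all calls it was before 0.587% of the lower and 0.377% of the higher.

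Site II was before 10.5% of the genes at least 2-fold lower, 11.4% of those at least 2-fold higher and 18.2% of all genes measured (11.4% of annotated genes). Over all calls it was before 15.9% of the lower and 20.09% of the higher, so the higher genes stood above all genes measured there and below them at 2-fold. The telo-box did likewise, with 2.46%, 2.58% and 3.91% in the same order (4.75% of annotated genes), and 2.64% of the lower and 4.88% of the higher over all calls. E2F sites (TTTGGCGC or TTTCCCGC) were before 0.769%, 1.59% and 0.991% (1.47% of annotated genes), with 0.720% and 1.33% over all calls. The SOG1 motif was before 10.6%, 8.88% and 8.66% (9.49%), with 8.38% and 8.73% over all calls. CRT (GCCGAC) was before 5.54%, 1.97% and 2.90% (2.58%), with 4.00% and 2.44% over all calls, and the evening element (AAAATATCT) before 3.69%, 1.82% and 2.42% (2.11%), with 2.69% and 2.41%. In the lists, the ABRE was before 15 of 22 LEA genes, RY before 11 of 13 storage genes, E2F before 7 of 18 replication genes, site II before 15 of 26 and the telo-box before 6 of 26 ribosome biogenesis genes, and the SOG1 motif before 4 of 11 DNA damage genes. The heat shock element was before only 3 of 16 heat shock genes. Site II was also before 9 of the 16 heat shock genes and 10 of 18 replication genes, so it was not particular to the ribosome lists. A match is a run of letters and does not show that a factor binds there.

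**Figure D5:**
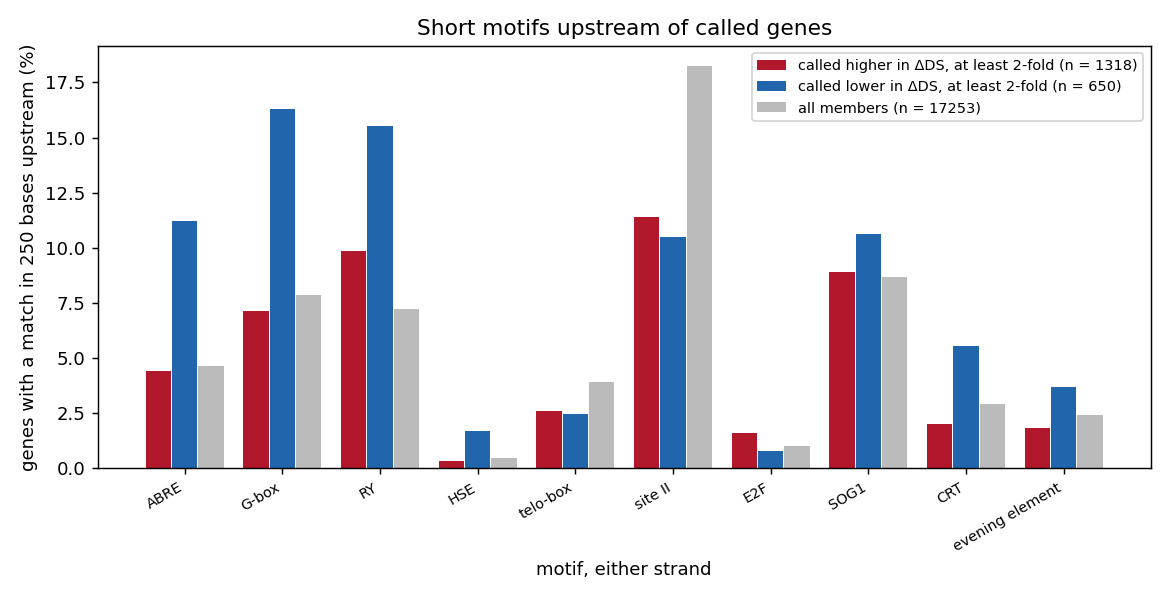
Share of genes (vertical axis, %) with a match to each motif in the 250 bases upstream on either strand, for genes called at least 2-fold higher in ΔDS (red, n = 1318), called at least 2-fold lower (blue, n = 650) and all measured genes (grey, n = 17253). The ABRE bar is at 11.2% for lower and 4.40% for higher genes, and site II is at 18.2% in all measured genes.

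The depth of these values was as follows. Mean normalised counts summed to 24526188 in the authors' deposited table for imbibed seeds. Genes with a single read gave size factors of 0.818, 1.21 and 1.21 for the ΔDS libraries and 0.786, 1.05 and 1.05 for the +WT libraries, a spread of 1.54-fold. The 10 most abundant genes held 13.4% of the normalised counts, and the median SE of a log2 fold change was 0.17.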

How the data were processed

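RNA-seq libraries, read from both ends, were made from 3 ΔDS and 3 +WT seed samples per state. Per the submitters' processing notes, HISAT2 and DESeq2 were used, with no version named, and the build was TAIR10. For the counter, annotation and strandedness the labels give nothing. Per the file headers, the mean coverage signal is DESeq2's mean of normalised counts over the libraries of a table. Fold changes and their errors were deposited as log2 values. The deposited score is the Wald statistic, which equals fold change over error. The p-value and its DESeq2 Benjamini-Hochberg adjusted form are those deposited by the authors, and tests are two-sided.

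From these, implied group means, the axis from dry to salt-imbibed seeds, z tests of differences between tables and motif counts were computed with Python 3.11.15, numpy 2.4.6, pandas 2.3.3 and scipy 1.17.1. The planned count test was not used because no counts per library were given. The call step and the z test were tested on simulated fold changes drawn with the deposited errors. The same errors served to draw and to test, so whether they are of the right size was not tested. The implied means were not part of that test. Of the identifiers 32835 of 33602 matched RefSeq TAIR10.1, which gave names, coordinates and promoters.

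The genes, the 30 lists (521 entries, of which 432 were measured, 62 were under 10 mean counts and 27 at 0) and the tests were chosen with earlier results of these data known. Named genes were the FLOE1 family, the 8 largest increases and decreases whose higher group reached 20 counts, up to 3 genes of each list by adjusted p and any called against its list, the 4 largest each way against the axis, and the 2 largest differences each way from dry and from salt. The text gives a part of these. CRA1, ICL, MLS, HSP17.4, MCM5, AT2G40360, PGY2, CDKB2;1 and SOG1 are outside this rule and were chosen after their values were seen. Alternatives were the adjustment, the minimum mean, the fold, the scaling, the centring, the axis and the reference distribution.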

Additional observations from a re-analysis of the deposited data

Results flagged for a closer look

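The genotype effect differed between states for many genes. By the z test with Benjamini-Hochberg adjustment, 3993 of 16969 genes differed between imbibed and dry seeds, and 1756 of 17212 between imbibed and salt seeds. The z test takes the deposited errors as known. With 8 degrees of freedom in a t reference there were 77 and 0 genes. The following were the largest differences each way, as imbibed minus other on the log2 scale, among genes with at least 20 implied counts in the higher imbibed group.

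Against dry seeds, AT4G37530, a peroxidase, differed by 8.87 ± 2.90 (SE, adjusted p = 0.0142), with 5.43 in imbibed and -3.44 in dry seeds. EXO70H4, an exocyst subunit, differed by 6.81 ± 2.04 (adjusted p = 0.00685), with 2.44 in imbibed and -4.37 in dry seeds. AT1G12070 differed by -4.78 ± 1.80 (adjusted p = 0.0368), with -0.39 in imbibed and 4.40 in dry seeds. PID2, a protein kinase, differed by -4.46 ± 1.51 (adjusted p = 0.0183), with 0.12 in imbibed and 4.57 in dry seeds. All 4 had implied means under 4 normalised counts in dry +WT seeds, so the dry values rest on few reads.

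Against salt seeds, AT4G28290, next to FLOE1, differed by 5.00 ± 1.43 (adjusted p = 0.0126), with -2.17 in imbibed and -7.17 in salt seeds. It overlaps LLG3 (AT4G28280), and 93.5% of its 31-base words lie in other genes. AT2G28410 differed by 4.24 ± 1.22 (adjusted p = 0.0136), with 3.16 in imbibed and -1.08 in salt seeds. PUP4, a purine permease, differed by -2.75 ± 0.80 (adjusted p = 0.0141), with -2.47 in imbibed and 0.27 in salt seeds. DIN2, a glycosyl hydrolase, differed by -2.51 ± 0.50 (adjusted p = 0.000172), with -0.37 in imbibed and 2.15 in salt seeds.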

How the results depend on the processing

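Adjusting over all genes with a p, a minimum mean of 50 or none, and centring on the median gene kept both counts of calls within 1.5 times of 3978 higher and 3757 lower. A change of at least 2-fold left 1319 and 651, and scaling by library totals gave 6161 and 1854. With 4 degrees of freedom in a t reference there were 0 and 0, although 9090 genes had an unadjusted p of at most 0.05. FLOE1 itself, at -5.58 ± 0.16 (SE), did not pass under that reference, so these counts do not sort weaker calls from stronger ones. The share of called genes with the sign of the axis, 74.8%, became 81.4% on the ΔDS axis, 83.3% from 4-fold, 69.7% from 1.5-fold and 85.1% under scaling by library totals. For differences between states, a t reference of 8 degrees of freedom left 77 genes against dry and 0 against salt. Of the 131 named genes 4 lost their call and 1 gained one under scaling by library totals, 1 lost it under adjustment over all genes, and no sign of a called gene turned. No paired analysis was possible because the files hold no values per library. For the same reason leaving out each replicate was not run, and the part of a single library in any value was not tested.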
